A study of Mus musculus with 12 samples.

Results

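Activin subunits and other genes of transforming growth factor beta (TGF-beta) and bone morphogenetic protein (BMP) signalling were described in the livers of PXR-deficient mice. The 5 genes are Inhbe, Inhbc, Inhba and Fstl1, taken from a table of HFD against chow, and Smad9, taken from a table of PCN against vehicle. They were chosen by their deposited differences among 366 different genes, counting both tables together. Of these, 336 are rows of the diet table, 33 are rows of the PCN table and 3 are rows of both. Every value of the contrast that chose a gene, calls by a statistical tool included, is therefore given as a description and supports nothing. None of the diet genes is a row of the PCN table, and Smad9 is not a row of the diet table.

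The series measured total liver RNA of 12 C57BL/6N mice by sequencing, with 3 mice in each of 4 groups. All 12 mice were PXR deficient, that is, deficient in the pregnane X receptor, a nuclear receptor for drugs and bile acids, and no group with an intact receptor was analysed here. The mice were 6 weeks old when the diets began. HFD mice (numbered 659, 669 and 696) received high-fat diet for 18 weeks, and chow mice (670, 695 and 707) received chow for the same time. HFD PCN mice (688, 698 and 706) were also on HFD for 18 weeks. They were injected intraperitoneally on 4 days with pregnenolone 16α-carbonitrile (PCN) at 50 mg/kg once a day. PCN is a steroid that activates PXR in rodents. HFD vehicle mice (682, 697 and 705), also on HFD for 18 weeks, were injected in the same way with 30% DMSO in corn oil. How PXR was inactivated, and in which cells, is not given in the sources used here.

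Activins are dimers of inhibin beta chains. They bind type II and type I receptor kinases on the cell surface, which phosphorylate SMAD2 and SMAD3, while BMP receptors phosphorylate SMAD1, SMAD5 and SMAD9. In rodent liver the beta C chain (Inhbc) and beta E chain (Inhbe) are made mainly by hepatocytes, the beta A chain (Inhba) is made in many tissues, and follistatin binds activin A outside the cell.

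Both tables held selected genes only. In either direction no row had a deposited log2 fold change under 0.6 in size. The highest adjusted p was 0.0474 among diet rows and 0.09547 among PCN rows. Genes outside these limits were not analysed here. Rows were selected for a difference between the same mice, so groups without overlap are no trait of the genes described. Every pathway and marker gene with a row also had groups without overlap. The counts of the rows summed to between 547431 and 920106 reads per mouse in the diet table and between 34989 and 103036 in the PCN table, so the depth of the whole libraries is unknown. Levels below are normalized read counts, that is, counts divided by each library's size factor, which lay between 0.8286 and 1.137 for diet libraries and between 0.7373 and 1.258 for PCN libraries. None of 10 hepatocyte markers was a row of either table, so the tissue could not be checked against them. In bulk liver RNA, fewer cells of a type and less RNA per cell cannot be told apart.

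Inhbe and Inhbc lie next to each other on chromosome 10 and were deposited with differences of opposite sign, so their start regions are shown. Each sequence is a RefSeq promoter window on GRCm38.p6, 250 bases before to 50 after the annotated start, printed 5′ to 3′ along the gene's own strand, which is the minus strand for both. The Inhbe window is chr10:127351799-127352098 and the Inhbc window is chr10:127370499-127370798. Capitals mark every match, on either strand, to the 5 motifs searched.
Inhbe promoter: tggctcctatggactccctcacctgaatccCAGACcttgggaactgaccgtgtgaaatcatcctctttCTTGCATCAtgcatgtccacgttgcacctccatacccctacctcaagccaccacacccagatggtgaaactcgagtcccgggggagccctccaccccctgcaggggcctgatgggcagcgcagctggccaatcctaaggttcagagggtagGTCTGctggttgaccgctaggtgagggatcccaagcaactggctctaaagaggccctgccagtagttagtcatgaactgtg
Inhbc promoter: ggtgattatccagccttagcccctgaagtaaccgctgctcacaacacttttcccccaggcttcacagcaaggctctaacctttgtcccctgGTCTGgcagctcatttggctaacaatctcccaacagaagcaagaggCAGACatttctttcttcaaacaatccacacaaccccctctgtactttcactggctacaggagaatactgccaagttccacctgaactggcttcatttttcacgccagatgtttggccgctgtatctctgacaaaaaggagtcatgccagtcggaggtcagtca

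The motifs were CAGAC (the SMAD box), CACGTG (an E-box), TGANTCA (the AP-1 element), TGATGNAAN (the C/EBP-ATF response element, CARE) and TGACGTCA (the CRE). The Inhbe window held 2 SMAD boxes, the first beginning 220 bases before the start and the second, on the opposite strand, 31 bases before it. It also held 1 CARE on the opposite strand, whose first base stood 182 bases before the start. The Inhbc window held 2 SMAD boxes, at 159 bases before the start on the opposite strand and at 113 bases before it. Of 32851 mouse promoters of this length, 49.6% held a SMAD box and 3.95% held a CARE. E-boxes were in 7.15%, AP-1 elements in 7.81% and CREs in 1.79%, and no window of the 5 genes held one. The promoters of Inhba, Fstl1 and Smad9 held none of the 5 motifs. A match describes letters only.

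All 5 genes matched RefSeq by symbol. The RefSeq start of Inhbe lies 2.56 kb downstream of the first base of the gene in GENCODE M21, so its window falls inside the longer gene model. For Inhbc the RefSeq start lies 0.117 kb upstream of the GENCODE one.

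Inhbe encodes the beta E chain, which forms activin E, a protein secreted by the liver. The gene (ENSMUSG00000047492) spans bases 127348857 to 127354411 of chromosome 10 on GRCm38, minus strand. Its normalized read counts were 2127, 2698 and 1862 in HFD mice 659, 669 and 696, against 858, 1123 and 912 in chow mice 670, 695 and 707. Every HFD mouse was above every chow mouse, and the lowest HFD mouse, 696, stood above the highest chow mouse, 695. The mean was 2229 ± 427 in HFD livers and 964 ± 140 in chow livers (SD, n = 3 each), 2.31-fold higher on HFD. The values that chose the gene, from the authors' deposited table, were a log2 fold change of 1.09, a standard error of 0.17 and an adjusted p of 1.99e-07.

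Inhbc encodes the beta C chain of activin C and was lower on HFD. It (ENSMUSG00000025405) spans bases 127356322 to 127370431 of chromosome 10, minus strand, 1910 bases upstream of Inhbe. HFD mice 659, 669 and 696 had 385, 400.4 and 384 normalized counts, against 629, 809 and 1125 in chow mice 670, 695 and 707. The HFD mice lay close together and the chow mice were spread, with no overlap between the groups. Means were 389.9 ± 9.14 in HFD livers and 854 ± 251 in chow livers (SD, n = 3 each), 2.19-fold lower on HFD. The authors' deposited table gives a log2 fold change of -0.98, a standard error of 0.19 and an adjusted p of 0.0001095.

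Inhba encodes the beta A chain, the subunit of activin A. This gene (ENSMUSG00000041324) spans bases 16011851 to 16031621 of chromosome 13, plus strand. Normalized counts were 76.8, 50.6 and 76.5 in HFD mice 659, 669 and 696, against 213, 122 and 167 in chow mice 670, 695 and 707. All HFD mice were below all chow mice, and the lowest mouse of each group was HFD 669 and chow 695. Inhba averaged 68.0 ± 15.0 in HFD livers and 167 ± 45.5 in chow livers (SD, n = 3 each), 2.46-fold lower on HFD. Its log2 fold change in the authors' deposited table is -1.02, with a standard error of 0.23 and an adjusted p of 0.002002.

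Fstl1 encodes follistatin-like 1, a secreted glycoprotein that shares the follistatin domain with the activin-binding protein follistatin. It (ENSMUSG00000022816) spans bases 37776873 to 37836514 of chromosome 16, plus strand. HFD mice 659, 669 and 696 had 135, 149.6 and 128 normalized counts, against 48.9, 81.6 and 78.4 in chow mice 670, 695 and 707. The HFD values were similar to one another and all lay above the chow values, of which mouse 670 had the lowest. The mean was 137 ± 11.3 on HFD and 69.6 ± 18.1 on chow (SD, n = 3 each), 1.97-fold higher on HFD. Of the 4 diet genes it stood nearest to the limit on adjusted p: the authors' deposited table gives a log2 fold change of 0.80, a standard error of 0.22 and an adjusted p of 0.02406.

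**Figure D1:**
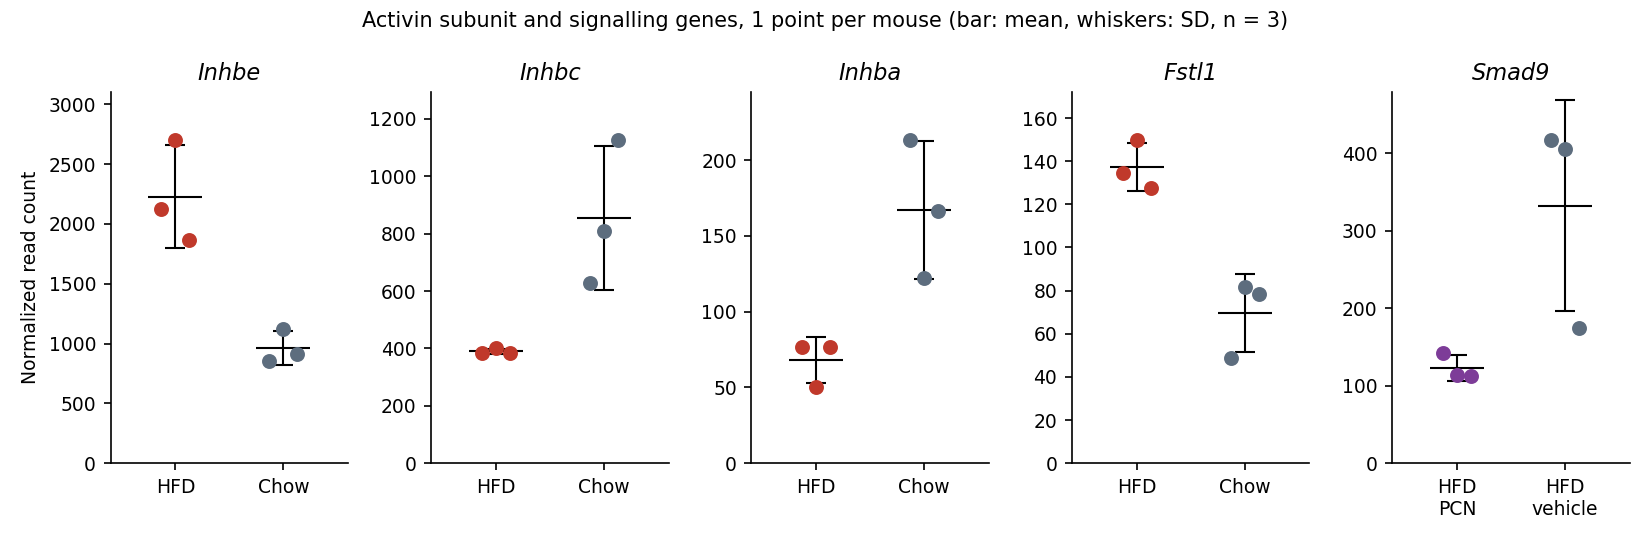
Normalized read counts of the 5 genes, 1 panel a gene, with 1 point for each mouse and a bar at the group mean ± SD (n = 3 mice). HFD stands left of chow and HFD PCN left of HFD vehicle. The groups overlapped in no panel, as in every pathway and marker gene with a row. Vehicle mouse 705 (175 counts of Smad9) stood nearest to the PCN mice.

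Levels of different genes can be compared only per length. Per kb of GENCODE exon, mean levels were 419 normalized counts on HFD and 181 on chow for Inhbe, and 209.7 on HFD and 459.6 on chow for Inhbc. For Inhba they were 10.6 on HFD and 26.2 on chow, and for Fstl1 27.9 on HFD and 14.2 on chow. On HFD the order from high to low was Inhbe, Inhbc, Fstl1, Inhba, and on chow it was Inhbc, Inhbe, Inhba, Fstl1. Both orders were the same when the same Inhbe counts were divided by the exon length from its RefSeq start. That length gave 809 counts per kb on HFD and 350.0 on chow, and reads were not recounted over those exons. The changes of place between these orders restate the differences by which the genes were chosen.

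The neighbouring genes Inhbe and Inhbc can also be read within a library, where the size factor cancels. Inhbe took 84.7% of the reads of the pair in HFD mouse 659 (Wilson 95% interval 83.3 to 86.0), 87.1% in 669 (85.8 to 88.3) and 82.9% in 696 (81.4 to 84.3). It took 57.7% in chow mouse 670 (55.2 to 60.1), 58.1% in 695 (56.0 to 60.3) and 44.8% in 707 (42.4 to 47.2). The groups did not overlap, and the chow mouse that stood apart, 707, was the only mouse of the 6 with more reads of Inhbc than of Inhbe. The mean share was 84.9% ± 2.10 on HFD and 53.5% ± 7.58 on chow (SD, n = 3 each). The intervals cover counting error only.

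The summed normalized counts of Inhbe, Inhbc and Inhba were 2589, 3149 and 2322 in HFD mice 659, 669 and 696, against 1700, 2054 and 2204 in chow mice 670, 695 and 707. These sums did not overlap, although HFD mouse 696 and chow mouse 707 were close, and they averaged 2687 ± 422 on HFD and 1986 ± 259 on chow (SD, n = 3 each). Counts weight a gene by its length, and the difference did not hold per kb of GENCODE exon, a scale added after the sums had been seen. There the sums were 619, 730.5 and 569 counts per kb in HFD mice 659, 669 and 696, against 533, 666 and 803 in chow mice 670, 695 and 707, with means of 639 ± 82.8 on HFD and 667 ± 135 on chow (SD, n = 3 each). The groups overlapped and the mean was slightly lower on HFD. With the same Inhbe counts divided by the exon length from its RefSeq start, the sums averaged 1029 ± 157 on HFD and 836 ± 141 on chow (SD, n = 3 each), also with overlap. The direction for the 3 subunits together therefore depended on the exon length taken for Inhbe. Inhba took 2.97%, 1.61% and 3.29% of the summed counts of the 3 genes in HFD mice 659, 669 and 696, against 12.5%, 5.93% and 7.56% in chow mice 670, 695 and 707.

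**Figure D2:**
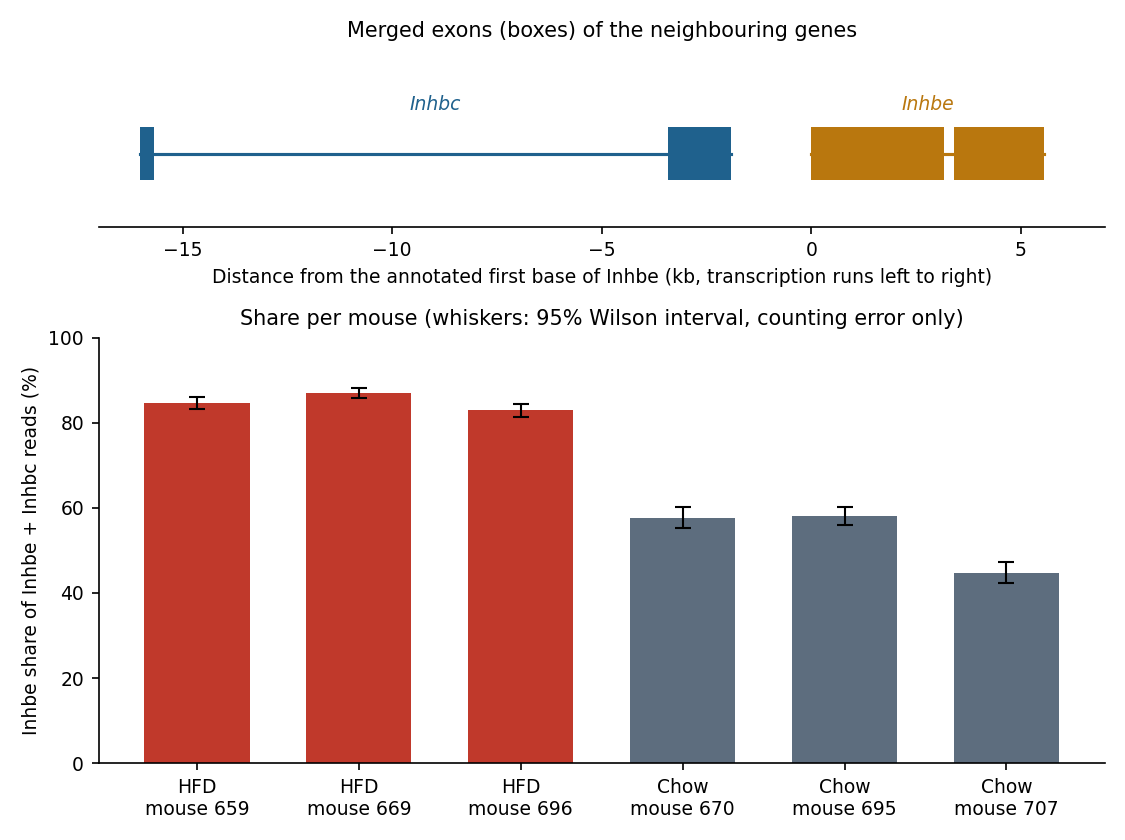
The upper panel maps both genes in kb from the first base of Inhbe, with merged GENCODE exons as boxes, and the lower panel gives Inhbe as a share of the reads of Inhbe and Inhbc in each mouse (bars, percent, with Wilson 95% intervals as whiskers). The genes are 1.91 kb apart and point the same way, and the HFD mice sit at 82.9% to 87.1%, the chow mice at 44.8% to 58.1%.

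An antisense gene, Gm47200, overlaps both Inhbe and Inhbc on the opposite strand. It shares 0 exon bases with Inhbe and 268 exon bases, 14.4% of the exon length, with Inhbc. Inhba is overlapped on the opposite strand by B230303A05Rik and Gm48444, which share 0 exon bases with it. Whether the counting used strand is not given in the sources used here, so Inhbc reads could not be told apart from reads of Gm47200 in the shared bases. Fstl1 and Smad9 overlap no other gene.

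Smad9 encodes a receptor-activated SMAD of the BMP branch and is itself transcribed in response to BMP signals. The gene (ENSMUSG00000027796) spans bases 54755582 to 54801257 of chromosome 3, plus strand. Normalized counts were 142, 114 and 112 in HFD PCN mice 688, 698 and 706, against 416, 406 and 175 in HFD vehicle mice 682, 697 and 705. The PCN mice were all below the vehicle mice, but vehicle mouse 705 lay far below the other two. The mean was 122.6 ± 17.0 with PCN and 332 ± 136 with vehicle (SD, n = 3 each), 2.71-fold lower with PCN. Per kb of exon, Smad9 averaged 22.8 counts with PCN and 61.9 with vehicle. The authors' deposited table gives a log2 fold change of -0.85, a standard error of 0.18 and an adjusted p of 0.004904. Without vehicle mouse 705 the log2 ratio of the group means was -1.75, against -1.44 with all 6 mice.

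For each of the 5 genes the deposited log2 fold change was smaller in size than the log2 ratio of the group means, which was 1.21 for Inhbe, -1.13 for Inhbc, -1.30 for Inhba, 0.98 for Fstl1 and -1.44 for Smad9. The largest gap was that of Smad9.

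Rows held with the authors' adjusted p under 0.05 made up 0.861% of the about 24985 genes tested for the higher direction on HFD and 0.484% for the lower. Inhbe and Fstl1 are among the 215 higher rows, and Inhbc and Inhba are among the 121 lower rows. For the lower direction with PCN the share was 0.0396% of about 25275 genes, or 10 rows with Smad9 among them. The genes were chosen from these rows, so nothing is read from these counts.

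Calls by other tools depended on the setting and used the same counts, the same contrast and rows that had all been selected for it, so they are no evidence on whether these genes differ. edgeR's quasi-likelihood test with the recovered size factors, adjusted over all genes the authors tested, called 0 of the 4 diet genes and 9 of 331 diet rows fitted (2.72%). It did not call Smad9 and called 2 of 33 PCN rows (6.06%). Before adjustment, every fitted row was under 0.05. A DESeq2 refit called 3 of the 4 diet genes beside 159 of 336 diet rows (47.3%), and 2 of 33 PCN rows (6.06%) without Smad9. With adjustment over the fitted rows alone, edgeR called 100% of the rows fitted in both tables and so all 5 genes. With TMM it called 37.2% of the diet rows fitted, 2 of the 4 diet genes among them, and 27.3% of PCN rows, Smad9 among them. Without vehicle mouse 705, edgeR called Smad9 and 24.2% of PCN rows.

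Other genes of the pathway were read from lists of 139 symbols, sorted by role and drawn up with earlier results of these data known. In the authors' deposited table for diet, 17 of the 139 were rows with an adjusted p under 0.05, 13 higher and 4 lower, with a median log2 fold change of 0.80 against 0.77 over all 336 rows. Without the 5 chosen genes the count was 13 of 134, with 11 higher and 2 lower. The ligands of the activin, inhibin and GDF class gave 4 of 14, with Inhbe and Gdf15 higher and Inhbc and Inhba lower. Of all genes tested, 0.861% were held as higher and 0.484% as lower. Because the lists were drawn up with earlier results known, nothing is read from their counts.

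Gdf15 encodes growth differentiation factor 15, a stress-induced hormone that acts on the hindbrain. It had 151.8, 113.0 and 88.8 normalized counts in HFD mice 659, 669 and 696, against 28.3, 52.8 and 54.3 in chow mice 670, 695 and 707. The groups did not overlap, and the mean was 2.61-fold higher on HFD. Of 13 genes for TGF-beta ligands and their activation, 1 was a row. That gene was Thbs1, whose product thrombospondin-1 releases TGF-beta from its latent complex. Thbs1 had 217.8, 115 and 139 normalized counts in HFD mice 659, 669 and 696, against 51.8, 48.0 and 41.0 in chow mice 670, 695 and 707, 3.35-fold higher on HFD by the means and without overlap.

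On the BMP side 2 listed genes were lower on HFD. Bmp2, a BMP ligand that in liver comes mainly from endothelial cells and raises hepcidin, was 1 of 13 ligands listed. It had 262, 161 and 220.7 normalized counts in HFD mice 659, 669 and 696, against 382, 349 and 395 in chow mice 670, 695 and 707, 1.75-fold lower on HFD. Atoh8, a transcription factor induced by BMP signals, was 1 of 13 BMP target genes. HFD mice 659, 669 and 696 had 232, 99.0 and 142 normalized counts of Atoh8, against 255, 378 and 400.7 in chow mice 670, 695 and 707, 2.18-fold lower on HFD. Neither gene's groups overlapped, but HFD mouse 659 and chow mouse 670 were close for Atoh8.

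None of 22 receptors and co-receptors, 8 SMADs or 14 intracellular regulators was a row of the diet table. The 24 secreted binding proteins and antagonists gave Fstl1 as the 1 row. A gene that is no row may have changed by less than the fold limit or missed the limit on adjusted p, so its absence does not show that it did not differ. In the PCN table Smad9 was the only one of the 139 genes with a row. It counted as 1 of 8 SMADs and as 1 of 13 BMP target genes, beside 0.0396% of all genes tested held as lower with PCN.

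**Figure D3:**
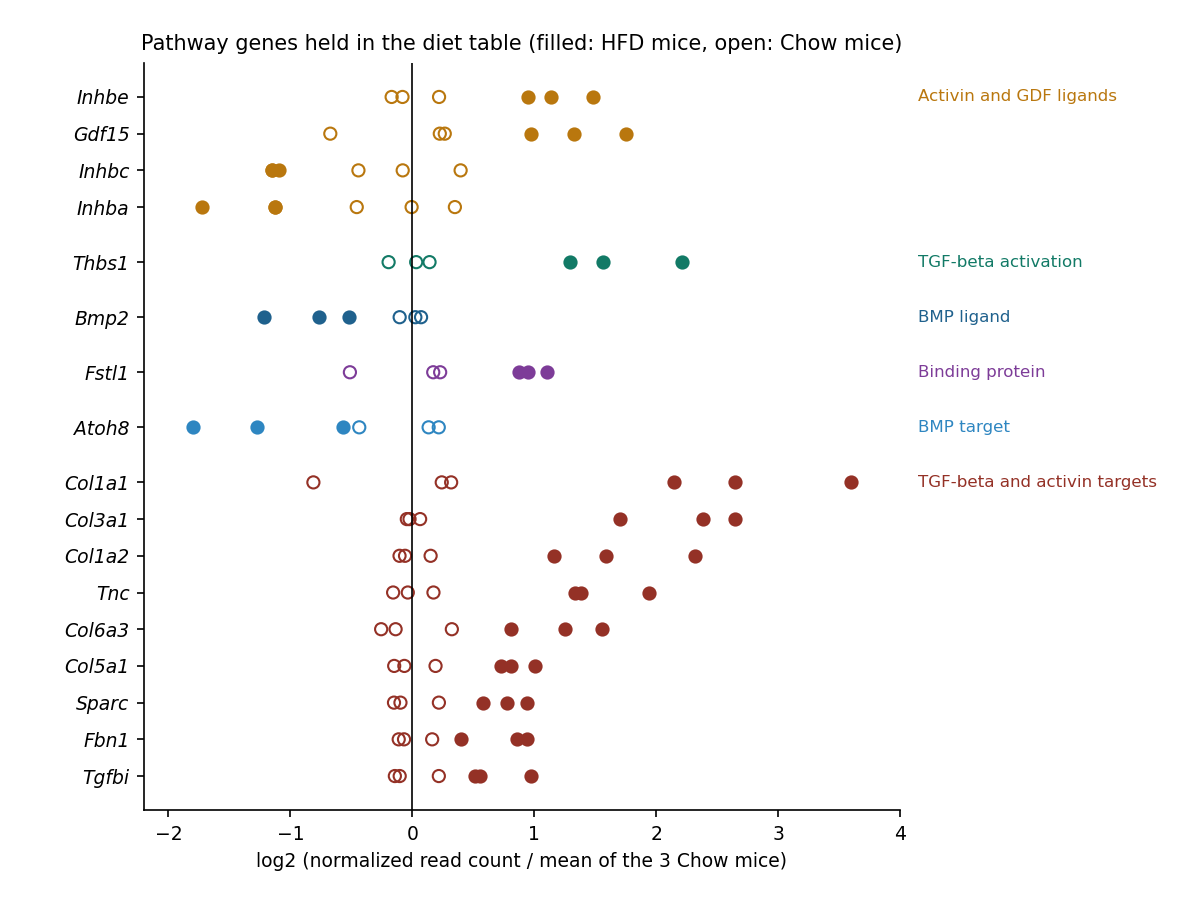
Log2 of each mouse's normalized read count over the mean of the 3 chow mice, for 17 pathway genes held as rows of the diet table, grouped and coloured by role, with filled points for HFD mice and open points for chow mice. All filled points lie right of 0 for 13 genes, among them Inhbe, Fstl1 and the 9 target genes of TGF-beta and activin, and left of 0 for Inhbc, Inhba, Bmp2 and Atoh8.

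Target genes of TGF-beta and activin gave 9 of 24 as rows, all higher on HFD. Their median log2 fold change was 1.05 in the authors' deposited table. Of all genes tested 0.861% were held as higher, and this list too was drawn up with earlier results known. The fibrillar collagens Col1a1, Col3a1 and Col1a2 were 7.61-fold, 4.91-fold and 3.41-fold higher by the group means, and Col6a3 and Col5a1 were 2.36-fold and 1.80-fold higher. Tnc, a matrix glycoprotein of injured tissue, averaged 81.5 ± 20.3 on HFD and 27.2 ± 3.20 on chow (SD, n = 3 each). Tgfbi, Sparc and Fbn1, which encode matrix proteins, were 1.62-fold, 1.71-fold and 1.68-fold higher.

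Some markers of other cell types were also rows of the diet table, all higher on HFD, beside 0.861% of all genes tested. Of 23 markers of hepatic stellate cells and fibroblasts, 9 were rows, all higher on HFD, and their summed level was 5617 to 8025 normalized counts in HFD mice, against 3095 to 3131 in chow mice. Of the 9, Col14a1 and Vim were not also on the list of target genes. No held marker was at 0, and the other markers of the list were not analysed here. The macrophage list gave 2 of 12 (Itgax and Mmp12), with a sum of 71.2 to 119.3 on HFD and 12.5 to 25.3 on chow. The lymphocyte list gave 1 of 10, Themis, with 306 to 372 on HFD and 13.3 to 58.6 on chow. None of 10 endothelial or 6 cholangiocyte markers was a row. The part of these cells in the levels of Fstl1, Inhba or the target genes was not tested.

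In the PCN table the 1 marker with a row was the macrophage gene Cd163, of 12 listed. It had 938 to 1286 normalized counts with PCN, against 503 to 690 with vehicle. Its part in the level of Smad9 was not tested.

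**Figure D4:**
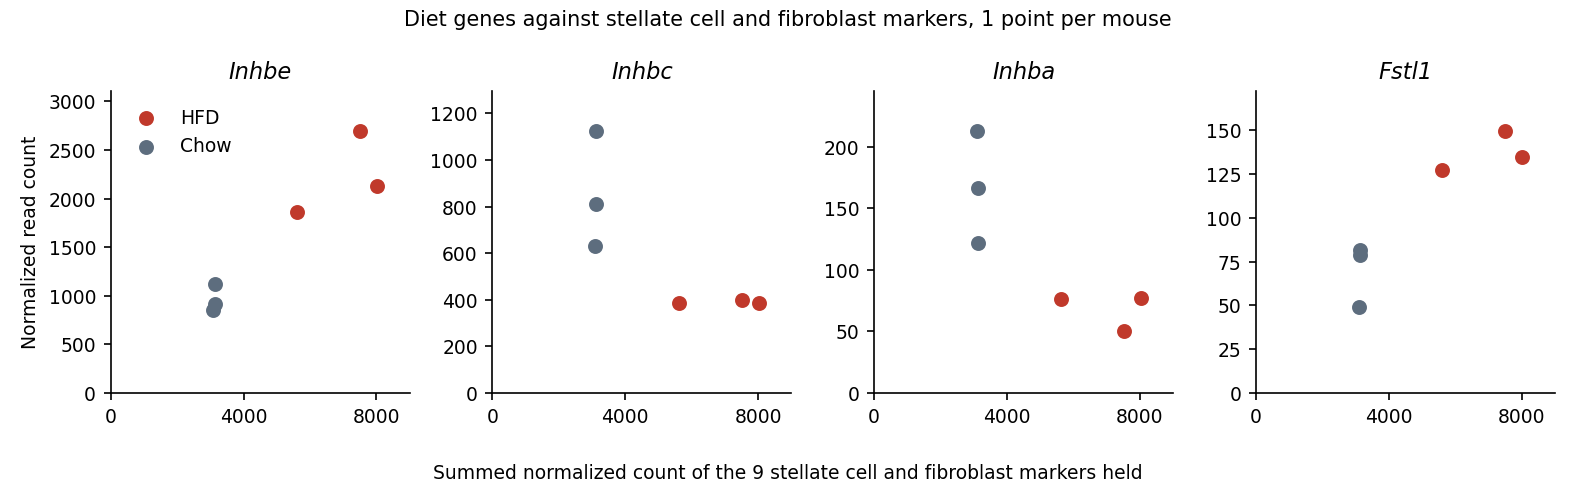
Summed normalized counts of the 9 stellate cell and fibroblast markers that are rows of the diet table, against the normalized counts of each of the 4 diet genes, with 1 point for each mouse. The HFD mice lie at 5617 to 8025 and the chow mice at 3095 to 3131 on the axis of the markers, so the points form 2 separate clusters and no correlation is given over them.

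The rows most like each gene were found by Pearson's r of log2(normalized count + 1) over the 6 mice of its table, among 310 diet rows or 25 PCN rows. All rows were chosen for a difference between the same libraries, so r is far from 0 for most of them, in the sign that the directions of the 2 rows set: for Inhbe its median over all rows was 0.81, and for Inhbc it was -0.709. Deviations from the group means share no such difference but rest on the same 6 libraries. On the deviations the median r was 0.007 for Inhbe, 0.0056 for Inhbc, 0.0375 for Inhba, -0.0046 for Fstl1 and 0.225 for Smad9. The rows named are the highest of 310 or 25 over only 6 mice, so a high r is no evidence of a relation. The rows closest to Inhbe were Col14a1 (0.998), Wee1 (0.993) and Ifit3 (0.992) on all 6 mice, and Col14a1 (0.984), G0s2 (0.978) and Serpine2 (0.972) on the deviations. Col14a1 encodes a fibril-associated collagen, and G0s2 an inhibitor of adipose triglyceride lipase. Serpine2 was deposited as lower on HFD (log2 fold change -0.98), opposite to Inhbe.

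C1galt1c1, a chaperone for an O-glycosylation enzyme, was closest to Inhbc by both measures, with r of 0.981 on all mice and 0.961 on the deviations. Plekhb1 (0.979) and Foxq1 (0.970) came next on all mice, and Cfap54 (0.955) and Fam120c (0.889) on the deviations. Cfap54 and Fam120c were deposited as higher on HFD (log2 fold changes 1.08 and 0.69), opposite to Inhbc. Hacd1, an enzyme of fatty acid elongation, was closest to Inhba by both, with 0.994 and 0.982. Marveld2 (0.987) and Tab2 (0.983) followed on all mice, and Rcan2 (0.950) and H2-Q1 (0.927) on the deviations. Rcan2 and H2-Q1 were deposited as higher on HFD (log2 fold changes 0.91 and 1.21), opposite to Inhba. Fstl1 had Cadm3 (0.996), Gbp10 (0.993) and Acad10 (0.989) nearest on all mice, and Tmc7 (0.986), Cadm3 (0.979) and Plekhb1 (0.979) on the deviations. Tmc7 and Plekhb1 were deposited as lower on HFD (log2 fold changes -0.78 and -0.76), opposite to Fstl1.

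Inmt, an N-methyltransferase, was closest to Smad9 by both measures, with r of 0.983 and 0.956 over the 6 mice of the PCN table. Dsg1c, a desmosomal cadherin, was second by both, with 0.954 and 0.830. Mthfd1l (0.934) came next on all mice and Derl3 (0.819) on the deviations. Derl3 was deposited as higher with PCN (log2 fold change 0.68), opposite to Smad9. On all mice, the median r over the rows of its own table was -0.739 for Inhba, 0.733 for Fstl1 and -0.677 for Smad9.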

How the data were processed

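Reads were processed by the authors. HISAT2, HTSeq, DESeq2 and the genome GRCm38 (mm10) are named, with no versions, in the submitters' processing notes. Per the file headers, the deposited tables hold each mouse's raw counts per gene, and also the authors' mean, p and adjusted p, and log2 fold change with its error. Size factors were recovered by least squares from that mean, with a largest gap of 0.0051 counts. The numbers of genes tested were estimated from p and adjusted p; 68 diet genes and 7 PCN genes that ranked above the last row are not held.

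Groups were taken from the labels, which name separate mice. edgeR 4.0.16 (R 4.3.3, limma 3.58.1) was fitted to each table's 6 libraries at an adjusted p under 0.05, with those size factors and with adjustment for every gene the authors tested. DESeq2 1.42.0, other scalings, filters and pseudocounts and leaving out each mouse were alternatives. The edgeR spread rests on rows selected for having changed. Gene models came from GENCODE M21 and promoters from RefSeq GRCm38.p6. The members and lists were chosen with earlier results of these data known, and 1 listed gene was left out of the lists and is not reported here. Named genes were the members, listed pathway and marker genes with a row, and for each member the 3 most similar rows with a mean of at least 10 and no predicted symbol, by each measure.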

Additional observations from a re-analysis of the deposited data

How the results depend on the processing

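Each of the 5 log2 ratios was computed under 11 alternatives, 55 in all, and none reversed direction. The groups of each gene did not overlap, so leaving out a mouse or changing the pseudocount could not have reversed it. In 46 of the 55 the move was less than 1 SD. The 9 larger moves came from scalings computed on the selected rows, where TMM shifts the median log2 ratio by -0.632 (diet) and -0.5 (PCN). With TMM the log2 ratio was 0.57 for Inhbe, -1.77 for Inhbc, -1.94 for Inhba and 0.34 for Fstl1. With DESeq2's median of ratios it was 0.55, -1.80, -1.97 and 0.32 in the same order, and -2.11 for Smad9. Leaving out 1 mouse gave 1.05 to 1.33 for Inhbe, -1.31 to -0.88 for Inhbc, -1.48 to -1.09 for Inhba, 0.78 to 1.11 for Fstl1 and -1.75 to -1.24 for Smad9.

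Of the 4 diet genes, edgeR called 0 (and 9 of 331 rows), against 4 when adjusted over the rows alone (331 of 331), 2 with TMM (122 of 328) and 3 with DESeq2 (159 of 336). Of the 1 PCN gene, edgeR called 0 (2 of 33 rows), against 1 over the rows alone (33 of 33) and 1 with TMM (9 of 33); leaving out 1 mouse gave 0 to 1, with 1 without vehicle mouse 705 (8 of 33). With a deposited log2 fold change of 1 or more in size required, pathway genes numbered 9 on HFD, against 17, and 0 with PCN, against 1. The log2 ratio of the 3 summed subunits, 0.44 in counts, was -0.061 per kb of GENCODE exon and 0.30 with the exon length of Inhbe from its RefSeq start. These scales were chosen after seeing the data. No paired analysis was possible because the groups share no mouse numbers. Unknown library depth and 3 mice per group limit precision, and the causes of these moves were not tested beyond the scaling itself.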
